A study of Homo sapiens with 12 samples.

Results

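The immediate early response genes are described here as 10 genes chosen by symbol: EGR1, EGR2, EGR3, FOS, FOSB, JUN, JUNB, IER2, DUSP1 and ATF3. All 10 were among the 28813 genes of the authors' normalized expression table and among the 15024 genes that entered the test. The list was drawn up with earlier results of these libraries known, EGR1's low level after 12 days of inhibitor and the wide spread of the vehicle libraries among them. Values from the day 12 treated libraries are therefore given as a description with no p-value, with genes past the threshold counted in those libraries only to stand beside the share of all genes, and tests are given for the treatment at day 6 and for culture time in vehicle. The libraries came from the established Merkel cell carcinoma line MKL-1, grown in RPMI with serum. The 4 groups, of 3 libraries each, were EPZ011989 for 12 days, vehicle for 12 days, EPZ011989 for 6 days and vehicle for 6 days. EPZ011989, an inhibitor of the histone methyltransferase EZH2, was used at 3 µM, all 4 groups including vehicle held 1% ethanol, and cells were split with fresh complete medium every 3 days. A single line was used, and the labels leave unsaid whether the 3 libraries of a group came from separate cultures. The p-values thus reflect differences between libraries that may be technical. Vehicle libraries enter both the day 6 and culture time tests, and their spread was known, so neither stands fully apart from the list's choice.

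Immediate early genes are transcribed within minutes of a growth factor, stress or serum signal, without new protein synthesis, and their short-lived messages then decline. Signals arrive largely through MAP kinases, which act on SRF with its ternary complex partners and on CREB at the promoters. Many of the proteins made are transcription factors: EGR proteins are zinc finger factors, while FOS and JUN family proteins pair as AP-1. Serum and growth factors are classic inducers of these genes in cultured cells.

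The libraries held 15994997 to 20866370 estimated reads. All 10 Merkel cell carcinoma markers examined were detected in every library, with ATOH1 between 435 and 528 TPM, the authors' level scaled for transcript length and library size. KRT20 lay between 72.5 and 126 TPM. Summed over 7 fibroblast markers the level was 23.3 to 26.2 TPM in day 12 EPZ011989 cells, 7.94 to 22.7 in day 12 vehicle, 27.3 to 36.0 in day 6 EPZ011989 cells and 15.6 to 18.3 in day 6 vehicle, mostly DCN at 7.71 to 32.5 TPM over the 12 libraries, with COL1A1 at most 3.43 and LUM at most 0.179. Summed over 5 keratinocyte markers it was 10.2 to 20.1 TPM in day 12 EPZ011989 cells, 10.6 to 15.01 in day 12 vehicle, 14.6 to 15.5 in day 6 EPZ011989 cells and 10.9 to 24.1 in day 6 vehicle, mostly KRT10, while KRT1 was at 0 throughout. Summed over 7 leukocyte markers it was 3.85 to 4.13 TPM in day 12 EPZ011989 cells, 2.13 to 3.33 in day 12 vehicle, 3.36 to 3.95 in day 6 EPZ011989 cells and 2.66 to 3.56 in day 6 vehicle, with CD68 at 1.46 to 2.81 and PTPRC at most 0.189. The 5 endothelial markers summed to at most 1.17 TPM. The part of these levels in the members' values was not tested. EZH2 message, which the inhibitor does not target directly, had an edgeR log2 fold change of -1.54 ± 0.05 (SE) at day 12 and -0.18 ± 0.05 at day 6, EPZ011989 over vehicle. The proliferation gene MKI67 had -2.35 ± 0.05 at day 12 and -0.33 ± 0.04 at day 6. One library stood apart, vehicle day 12 replicate 1, which had the lowest score on principal component 3, -51.4 beside -14.0 and 7.001 in replicates 2 and 3 of its group, and day 12 fold changes that moved most without it are given both ways.

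JUN had the highest TPM of the 10 genes in all 4 groups, while EGR1, FOS and FOSB stood lower in the order after 12 days of EPZ011989 than in vehicle. In day 12 EPZ011989 cells the mean TPM ran from JUN at 128 through IER2 at 22.1, DUSP1 at 21.5, JUNB at 19.3, ATF3 at 17.6, FOS at 10.9, EGR1 at 4.18, FOSB at 1.63 and EGR2 at 1.19 to EGR3 at 1.07. In day 12 vehicle cells it ran from JUN at 111 through FOS at 87.6, EGR1 at 68.2, IER2 at 50.5, JUNB at 47.6, DUSP1 at 24.0, FOSB at 12.3 and ATF3 at 3.96 to EGR3 at 0.693 and EGR2 at 0.298. EGR1 was thus 7th of 10 in the treated group and 3rd of 10 in the vehicle group. Neighbours whose library ranges overlapped in the treated order were IER2 with DUSP1, FOSB with EGR2, and EGR2 with EGR3. In the day 12 vehicle order FOS with EGR1, EGR1 with IER2, IER2 with JUNB, and EGR3 with EGR2 overlapped. At day 6 the order in EPZ011989 cells was JUN at 84.8 TPM, FOS at 49.8, JUNB at 40.5, IER2 at 37.0, EGR1 at 26.8, DUSP1 at 14.3, ATF3 at 8.06, FOSB at 2.36, EGR3 at 1.69 and EGR2 at 0.708, with every neighbouring pair from FOS to DUSP1 and from FOSB to EGR2 overlapping. In day 6 vehicle cells it was JUN at 108 TPM, FOS at 64.4, IER2 at 57.6, JUNB at 56.6, EGR1 at 47.7, DUSP1 at 20.1, ATF3 at 6.25, FOSB at 5.68, EGR3 at 0.494 and EGR2 at 0.247. There FOS overlapped IER2, IER2 overlapped JUNB, and ATF3 overlapped FOSB.

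**Figure D1:**
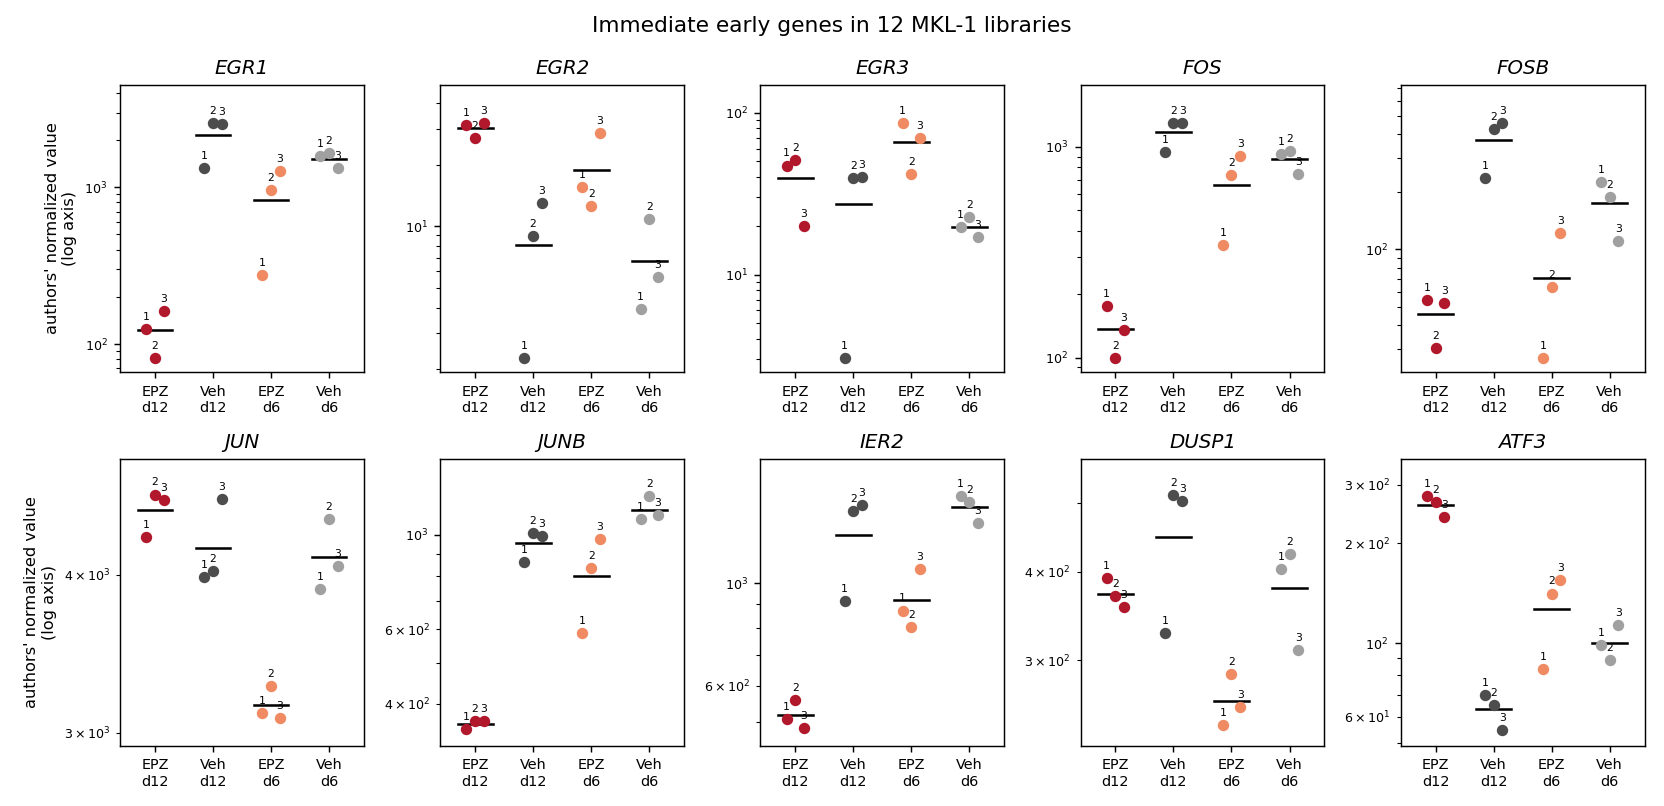
Authors' normalized value of each gene in each library (log axis; points numbered by replicate, bars the mean of 3 libraries), EPZ011989 (EPZ) left of vehicle (Veh) at day 12 (d12) and day 6 (d6). EGR1, FOS, FOSB, JUNB and IER2 lie below vehicle in all 3 treated libraries at day 12, and ATF3 and EGR2 above.

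At day 12, EGR1, FOS, FOSB, JUNB and IER2 were lower and EGR2 and ATF3 higher in EPZ011989 cells than in vehicle cells, while EGR3, JUN and DUSP1 overlapped. Counted by an adjusted p of 0.05 in the edgeR quasi-likelihood fit they were 7 of 10, beside 66.9% of all genes tested, 33.7% higher and 33.2% lower. The same 7 were those whose groups did not overlap in the authors' table, beside 64.0% of 14618 genes, 33.0% higher and 31.1% lower. Since EGR1's place in this contrast was known when the list was made, nothing is read from these counts. The members' median log2 fold change was -0.65, beside 0.02 over all genes tested. In bulk RNA, fewer cells carrying a message and less message per cell cannot be told apart.

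At day 6, JUN, JUNB, IER2, DUSP1 and FOSB fell and EGR3 rose with EPZ011989, and EGR1, EGR2, FOS and ATF3 did not pass the test. The 6 calls of 10 genes stand beside 34.2% of all genes called, the gene that rose beside 17.1% called higher and the 5 that fell beside 17.0% called lower. Groups did not overlap for 7 of the 10 genes, 2 higher and 5 lower, beside 43.2% of genes in the authors' table, 21.1% higher and 22.1% lower. The median log2 fold change was -0.53 over the 10 genes and -0.02 over all genes tested. JUN and IER2 were called in each fit that left out a library. The count fell to 2 without vehicle day 6 replicate 2, to 3 without vehicle day 6 replicate 1 and to 3 without EPZ011989 day 6 replicate 1. The share of all genes called fell too in those fits, to 25.3%, 29.2% and 27.1%.

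**Figure D2:**
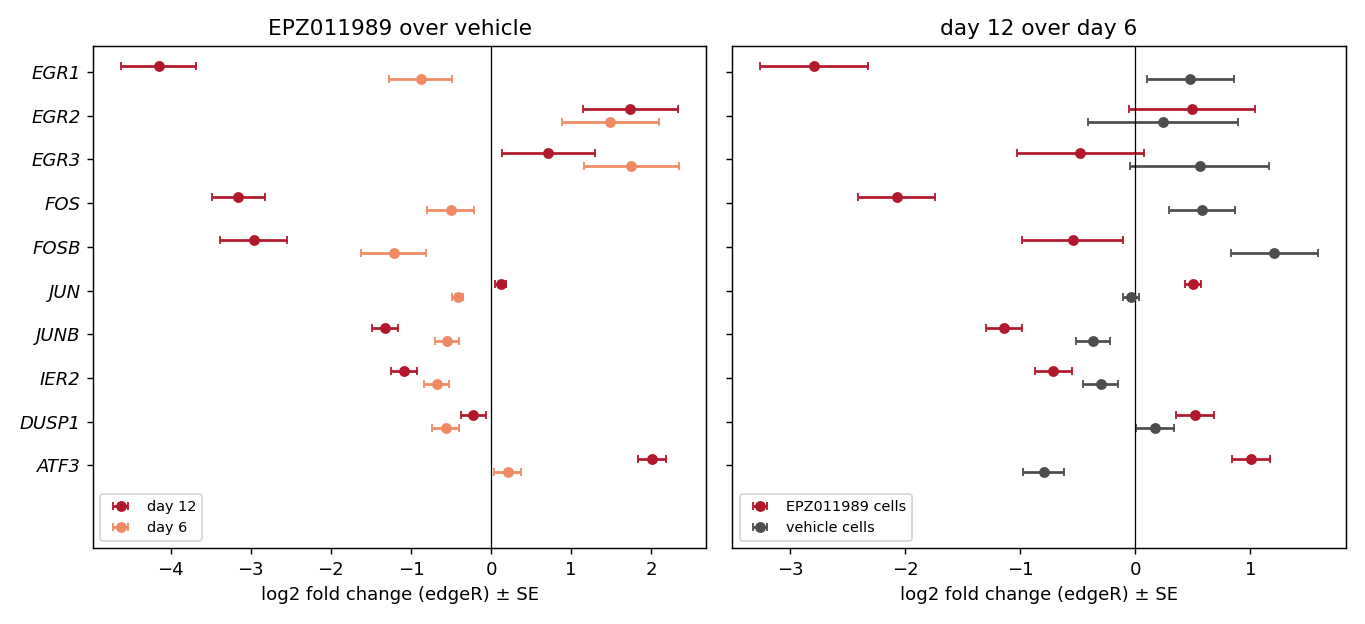
edgeR log2 fold change with its standard error for each gene, EPZ011989 over vehicle at day 12 and day 6 (left) and day 12 over day 6 in EPZ011989 and in vehicle cells (right). At day 12 EGR1 lies at -4.15, FOS at -3.16 and FOSB at -2.97, while JUN and DUSP1 lie near 0.

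Among the EGR factors, EGR1 (ENSG00000120738.7, chr5:138465490-138469315, plus strand, GRCh38) is the zinc finger factor most widely used as a readout of growth factor signalling. EGR1 had normalized values of 125, 81.2 and 162 in the day 12 EPZ011989 libraries, against 1328, 2586 and 2551 in day 12 vehicle. Vehicle replicate 1 was the lowest of its group, but far above every treated library. The edgeR log2 fold change was -4.15 ± 0.47, or 17.7-fold lower, and -4.41 without that vehicle library. At day 6 EGR1 had 276, 957 and 1271 in EPZ011989 libraries, against 1583, 1664 and 1322 in vehicle. All 3 treated libraries lay below all 3 vehicle libraries, but replicate 1 was far below the other treated ones and replicate 3 was close to the vehicle range. The log2 fold change of -0.88 ± 0.39 missed the threshold (edgeR adjusted p = 0.0971). It was -0.45 without EPZ011989 day 6 replicate 1, and -1.34, which passed, without replicate 3.

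EGR2 and EGR3 are relatives of EGR1 that bind the same kind of site; EGR2 is known for its role in Schwann cell myelination. EGR2 (ENSG00000122877.15, chr10:62811996-62919900, minus strand) rested on 2 to 36 estimated reads a library and EGR3 (ENSG00000179388.8) on 3 to 79. EGR2 had normalized values of 31.1, 27.0 and 32.1 in day 12 EPZ011989 libraries, against 2.27, 8.98 and 12.98 in vehicle, with no overlap. Its log2 fold change was 1.74 ± 0.60, and it was 1.30 without vehicle day 12 replicate 1, 1.63 without EPZ011989 day 12 replicate 1 and 1.59 without EPZ011989 day 12 replicate 3, in each of which EGR2 would leave the count. At day 6 EGR2 had 15.6, 12.6 and 28.6 in EPZ011989 libraries, against 3.92, 10.8 and 5.63 in vehicle. The groups did not overlap, and the log2 fold change of 1.49 ± 0.61 missed the threshold (edgeR adjusted p = 0.0742), although 1.49 passed in the fit without vehicle day 12 replicate 1. EGR3 had 47.1, 50.9 and 20.0 in day 12 EPZ011989 libraries, against 3.04, 39.2 and 39.9 in vehicle. The low vehicle value was replicate 1, the groups overlapped, and the log2 fold change was 0.72 ± 0.58, or 0.20 without that library. At day 6 EGR3 had 86.7, 41.5 and 70.1 in EPZ011989 libraries, against 19.6, 22.7 and 17.0 in vehicle. The groups did not overlap and EGR3 rose by 1.75 ± 0.59 (edgeR adjusted p = 0.0328). That call was lost in 5 of the 6 fits without one day 6 library, with log2 fold changes of 1.51 to 1.95. EGR3 overlaps AC055854.1 on the opposite strand, and whether the libraries kept strand is not stated.

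The promoters of EGR1 and EGR2 are shown because these were the 2 of 9 members with an entry in which an SRF CArG box was found. The window searched ran from 250 bases before to 50 bases after the RefSeq start site (GRCh38.p14), on both strands, in 12 promoters of the 9 members with an entry, and CArG boxes were found in 1.29% of the 35097 promoters of that length. In the EGR1 stretch at chr5:138465271-138465415 (plus strand) the capitals mark a GCGNGGGCG site, the sequence that EGR proteins bind, and a pair of CArG boxes that begin 105 and 83 bases upstream of the start. In the EGR2 stretch at chr10:62816418-62816447 (minus strand) they mark a CArG box 71 bases upstream. GCGNGGGCG was found in 9.43% of promoters, a further EGR2 promoter among them. Sites outside the window were not searched, and the part of these sites in the genes' levels was not tested.
EGR1: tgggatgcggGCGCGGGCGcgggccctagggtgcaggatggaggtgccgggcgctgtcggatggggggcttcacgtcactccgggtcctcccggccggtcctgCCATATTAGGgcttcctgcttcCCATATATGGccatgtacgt
EGR2: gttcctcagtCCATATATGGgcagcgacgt

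FOS (ENSG00000170345.9, chr14:75278774-75282230, plus strand) and FOSB (ENSG00000125740.13, chr19:45467995-45475179, plus strand) encode the FOS side of AP-1, which binds DNA only with a JUN partner. FOS had normalized values of 176, 99.997 and 135 in day 12 EPZ011989 libraries, against 942, 1306 and 1305 in vehicle. The groups were far apart and the edgeR log2 fold change was -3.16 ± 0.33, or 8.91-fold lower, and -3.36 without vehicle day 12 replicate 1. At day 6 FOS had 343, 737 and 905 in EPZ011989 libraries, against 930.1, 961 and 742 in vehicle. The groups overlapped, with treated replicate 1 low, and the log2 fold change of -0.51 ± 0.29 did not pass (edgeR adjusted p = 0.207). It was -0.17 without that library.

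FOSB had normalized values of 54.5, 30.4 and 52.5 in day 12 EPZ011989 libraries, against 236, 427 and 460.4 in vehicle, where replicate 1 was again the lowest. The log2 fold change was -2.97 ± 0.42, or 7.81-fold lower, and -3.22 without that vehicle library. At day 6 FOSB had 27.0, 63.5 and 120.9995 in EPZ011989 libraries, against 224, 187 and 110.3 in vehicle. Treated replicate 3 lay just above vehicle replicate 3, so the groups overlapped, and FOSB fell by 1.21 ± 0.41 on the log2 scale (edgeR adjusted p = 0.0322). The call was lost without EPZ011989 day 6 replicate 1, with -0.82, and without vehicle replicate 1 or 2 or EPZ011989 replicate 2, with -1.15 to -1.07. FOSB overlaps ERCC1 on the opposite strand, and whether the libraries kept strand is not stated, so reads of the shared stretch cannot be told apart.

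JUN (ENSG00000177606.6, chr1:58780788-58784327, minus strand) and JUNB (ENSG00000171223.5, chr19:12791496-12793315, plus strand) encode JUN proteins, which can pair with each other or with FOS proteins, and JUNB is the weaker activator of the pair. JUN had normalized values of 4285, 4629 and 4579 in day 12 EPZ011989 libraries, against 3986, 4030 and 4592 in vehicle. The groups overlapped and the log2 fold change was 0.12 ± 0.07, or 0.21 without vehicle day 12 replicate 3, where JUN would enter the count. At day 6 JUN had 3111, 3267 and 3079 in EPZ011989 libraries, against 3898, 4427 and 4067 in vehicle. There was no overlap, the treated libraries lay close together, and JUN fell by 0.41 ± 0.07 on the log2 scale (edgeR adjusted p = 0.000351).

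JUNB had normalized values of 349.9, 364 and 365 in day 12 EPZ011989 libraries, against 864, 1011 and 992 in vehicle. The treated libraries lay close together and far from vehicle, and the log2 fold change was -1.33 ± 0.16, or 2.51-fold lower. At day 6 JUNB had 589, 835 and 977 in EPZ011989 libraries, against 1087, 1233 and 1113 in vehicle. All treated libraries lay below all vehicle libraries, replicate 1 the lowest, and JUNB fell by 0.55 ± 0.15 (edgeR adjusted p = 0.0106). The call was lost without vehicle day 6 replicate 2, with -0.47. JUNB overlaps HOOK2 on the opposite strand.

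FOS, FOSB and JUNB held a TATAAA box 33, 30 and 31 bases upstream of the RefSeq start, DUSP1 held one 30 bases upstream and ATF3 one 230 bases upstream. TATAAA was found in 11.5% of all promoters of this window. The stretches of FOS, FOSB, JUNB and DUSP1, where the box lay at nearly the same place, are shown. The part of the box in the genes' levels was not tested. Capitals mark TATAAA, and in DUSP1 also a cAMP response element, TGACGTCA, the site that CREB binds, which was found in 1.85% of promoters. The pattern TGANTCA, which takes in the AP-1 site but allows any middle base, was found in 7.71% of promoters. It was in none of the members' windows, and other forms of the site were not searched. JUN and IER2 held none of the 5 motifs. The stretches lie at chr14:75278785-75278810 (plus strand), chr19:45467956-45467981 (plus), chr19:12791445-12791470 (plus) and chr5:172771210-172771330 (minus), in the order printed.
FOS: aaacgcttgtTATAAAagcagtggct
FOSB: gtcccgggcaTATAAAtacaggctgg
JUNB: actagcgcggTATAAAggcgtgtggc
DUSP1: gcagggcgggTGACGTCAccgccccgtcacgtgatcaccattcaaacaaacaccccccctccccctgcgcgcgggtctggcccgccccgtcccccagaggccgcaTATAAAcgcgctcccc

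IER2 (ENSG00000160888.6, chr19:13150415-13154908, plus strand), an immediate early nuclear protein, lies 357.1 kb from JUNB. IER2 had normalized values of 508, 559 and 485 in day 12 EPZ011989 libraries, against 913, 1431 and 1472 in vehicle. The groups did not overlap, with vehicle replicate 1 the nearest, and the log2 fold change was -1.09 ± 0.16, or 2.13-fold lower. Without that vehicle library it was -1.31. With all libraries it was -1.30 with transcript lengths as an offset, and -1.27 and -1.26 in limma fits of the authors' values. At day 6 IER2 had 872, 805 and 1075 in EPZ011989 libraries, against 1543, 1494 and 1350 in vehicle. There was no overlap and IER2 fell by 0.68 ± 0.15 (edgeR adjusted p = 0.00360).

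DUSP1 (ENSG00000120129.5, chr5:172768090-172771195, minus strand) encodes a phosphatase that switches MAP kinases off. DUSP1 had normalized values of 392, 369 and 356 in day 12 EPZ011989 libraries, against 327, 513 and 503 in vehicle. Treated libraries lay between vehicle replicate 1 and the other 2, and the log2 fold change was -0.22 ± 0.16. Without vehicle replicate 1 it was -0.42, and DUSP1 would enter the count. At day 6 DUSP1 had 243, 287 and 257 in EPZ011989 libraries, against 404, 423 and 310.4 in vehicle. There was no overlap and DUSP1 fell by 0.57 ± 0.17 (edgeR adjusted p = 0.0165). That call was lost in 4 of the 6 fits that left out a day 6 library, with -0.55 to -0.45. DUSP1 overlaps an antisense transcript, AC022217.3.

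ATF3 (ENSG00000162772.16, chr1:212565334-212620777, plus strand) encodes a stress-induced bZIP factor that often represses its targets. ATF3 had normalized values of 277, 265 and 239.8 in day 12 EPZ011989 libraries, against 69.8, 65.1 and 54.8 in vehicle. The groups were far apart and the log2 fold change was 2.01 ± 0.18, or 4.02-fold higher. At day 6 ATF3 had 83.3, 141 and 155 in EPZ011989 libraries, against 98.4, 89.2 and 113 in vehicle. Treated replicate 1 lay below all vehicle libraries and the other 2 above them, and the log2 fold change of 0.21 ± 0.17 did not pass (edgeR adjusted p = 0.382).

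In vehicle cells, FOSB was higher and ATF3 lower at day 12 than at day 6, and the other 8 genes did not pass the test. These 2 calls stand beside 13.1% of all genes called, 5.96% higher and 7.15% lower. FOSB rose by 1.21 ± 0.38 on the log2 scale at the edge of the threshold (edgeR adjusted p = 0.049998). ATF3 fell by 0.80 ± 0.18 (edgeR adjusted p = 0.0170). EGR1 had 0.48 ± 0.38 (edgeR adjusted p = 0.417) and FOS 0.58 ± 0.29 (edgeR adjusted p = 0.189), with overlapping groups. JUNB did not overlap between the days, with -0.36 ± 0.15 (edgeR adjusted p = 0.114), which made 3 genes without overlap beside 22.6% of genes in the authors' table, 11.4% higher and 11.1% lower. The ATF3 call was lost without vehicle day 6 replicate 2 (-0.79), vehicle day 6 replicate 3 (-0.78) or vehicle day 12 replicate 1 (-0.68). The FOSB call was lost in 9 of the 12 fits that left out a library, with 1.00 to 1.34, and held without EPZ011989 day 6 replicate 1, EPZ011989 day 6 replicate 3 or vehicle day 12 replicate 1. JUNB passed, at -0.36, without EPZ011989 day 6 replicate 1. Neither call was made in the fit of the 6 vehicle libraries alone, where 0.0649% of genes were called. The spread of these libraries was known when the list was made, which limits what these p-values can show.

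In EPZ011989 cells, day 12 lay below day 6 for EGR1, FOS, JUNB and IER2 and above it for JUN, DUSP1 and ATF3. Those 7 were counted by the same threshold beside 57.6% of all genes, 27.8% higher and 29.8% lower, and were those without overlap, beside 59.9% of genes, 30.3% higher and 29.6% lower. The treated day 12 libraries are the ones known when the list was made, so nothing is read from the counts. EGR1 had a log2 fold change of -2.79 ± 0.47, FOS -2.07 ± 0.33, JUNB -1.14 ± 0.16 and IER2 -0.71 ± 0.16. JUN had 0.50 ± 0.07, DUSP1 0.52 ± 0.17 and ATF3 1.01 ± 0.17. DUSP1 had 0.45 without EPZ011989 day 6 replicate 1, where it would leave the count. FOSB, at -0.54 ± 0.44, overlapped: EPZ011989 day 6 replicate 1 lay below all day 12 treated libraries. The day 6 and day 12 comparisons within a treatment share libraries with the treatment comparisons and are not separate evidence.

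The fitted spread between libraries of one group was largest for EGR3 and EGR2, which rest on few reads, and smallest for JUN, while set against genes of the same level it was largest for EGR1 and FOS and lay below that level for ATF3. The biological coefficient of variation that edgeR fitted was 34.4% for EGR1, and its ratio to the value fitted for genes of the same level was at the 99.5th percentile of all genes tested. FOS had 25.6% (98.7th percentile), FOSB 34.2% (97.4th), IER2 13.5% (96.4th), JUNB 13.1% (95.4th), EGR3 47.6% (94.4th) and DUSP1 14.1% (91.2nd). JUN had 6.21% (87.5th), EGR2 41.0% (80.7th) and ATF3 13.2% (16.8th). The fit pools all 4 groups, and the known spread was that of the vehicle libraries, so these percentiles carry no test. In the authors' values EGR1 had an SD over mean of 32.9% in day 12 EPZ011989 cells and 33.2% in day 12 vehicle. At day 6 it was 60.9% in EPZ011989 cells and 11.7% in vehicle. FOS had 27.8% and 17.7% at day 12, and 43.5% and 13.5% at day 6, in the same order.

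In some groups, though not in day 12 EPZ011989 cells, 1 library was the lowest or the highest for most of the 10 genes. Vehicle day 12 replicate 1 was the lowest of its group for 9 of the 10 genes, all but ATF3, beside 36.3% of all genes lowest there. Of 37 other immediate early genes in the authors' table, 19 (51.4%) were lowest in that library, whereas of 20 other AP-1 and CREB/ATF genes 4 were lowest and 8 highest there. EPZ011989 day 6 replicate 1 was lowest for EGR1, FOS, FOSB, JUNB, DUSP1 and ATF3, beside 32.7% of all genes, and replicate 3 of that group was highest for 7 members, beside 32.8%. In vehicle day 6, replicate 2 was highest for 7 members, beside 34.4% of all genes, and replicate 3 was lowest for 6, beside 31.7%. In day 12 EPZ011989 cells, replicates 1, 2 and 3 were lowest for 2, 4 and 4 members, beside 33.9%, 33.7% and 32.3% of all genes. They were highest for 4, 3 and 3 members, beside 34.2%, 32.1% and 33.7%. The spread of the vehicle libraries was known when the list was made, so these counts are a description. The part of the libraries' other differences in the members' values was not tested.

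EGR1 was set against the AP-1 genes and DUSP1 within each library, where the library's scaling cancels. The ratio of EGR1 to FOS was 0.711, 0.812 and 1.203 in day 12 EPZ011989 libraries, against 1.41, 1.98 and 1.96 in vehicle. The ratio was lower in all treated libraries, so EGR1 was lower by more than FOS. EGR1 over FOSB was 2.30, 2.67 and 3.08 in day 12 EPZ011989 libraries, against 5.64, 6.05 and 5.54 in vehicle. EGR1 over JUNB was 0.358, 0.223 and 0.444 in day 12 EPZ011989 libraries, against 1.54, 2.56 and 2.57 in vehicle. EGR1 over DUSP1 was 0.319, 0.220 and 0.454 in day 12 EPZ011989 libraries, against 4.06, 5.04 and 5.07 in vehicle. No library of one group reached the other in any of these 4 ratios, and EGR1 over JUN, at 0.0175 to 0.0354 in EPZ011989 libraries against 0.333 to 0.642 in vehicle, was also apart. EGR1's low day 12 level was known when the list was made, and every ratio has it on top. The day 12 separation is therefore a description and nothing further is read from it. At day 6 EGR1 over FOS was 0.804, 1.30 and 1.41 in EPZ011989 libraries, against 1.70, 1.73 and 1.78 in vehicle. That ratio did not overlap either, and its day 6 vehicle values lay close together. Vehicle day 12 replicate 1, at 1.410, nevertheless lay next to EPZ011989 day 6 replicate 3, at 1.405. EGR1 over FOSB overlapped at day 6, at 10.2 to 15.1 in EPZ011989 libraries against 7.06 to 12.0 in vehicle. EGR1 over DUSP1 overlapped too, at 1.14 to 4.94 in EPZ011989 libraries against 3.92 to 4.26 in vehicle. So did EGR1 over JUN (0.0888 to 0.413 against 0.325 to 0.406) and over JUNB (0.469 to 1.30 against 1.19 to 1.46). EGR1 over IER2 also overlapped, at 0.317 to 1.19 in EPZ011989 libraries against 0.979 to 1.11 in vehicle. By contrast, EGR1 over ATF3 did not overlap at day 6, at 3.32 to 8.21 in EPZ011989 libraries against 11.7 to 18.7 in vehicle. Nor did EGR1 over EGR2 (17.7 to 76.1 against 154 to 404) or over EGR3 (3.19 to 23.1 against 73.1 to 80.8), whose levels rest on few reads.

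**Figure D3:**
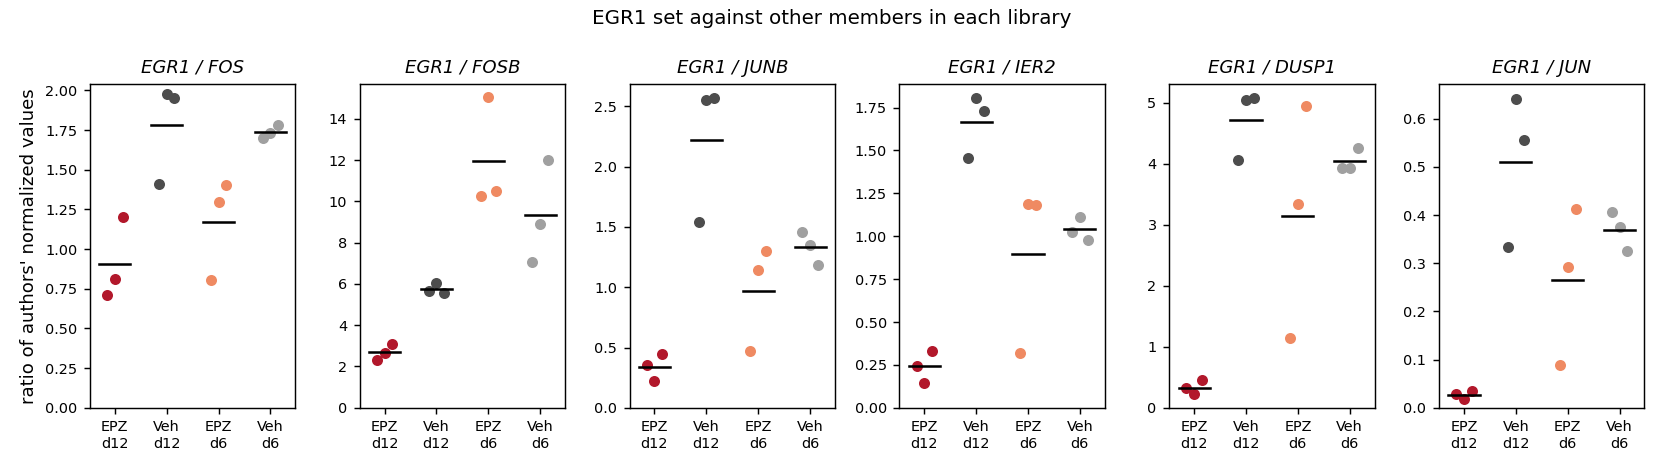
Ratio of EGR1 to 6 other members in each library (authors' normalized values; points libraries, bars means of 3), EPZ011989 left of vehicle at day 12 and day 6. At day 12 every ratio is lower in all 3 treated libraries than in vehicle, and at day 6 EGR1 over FOS is 0.804 to 1.41 in EPZ011989 cells and 1.70 to 1.78 in vehicle. The other ratios shown overlap at day 6.

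FOS was the gene whose pattern over the 12 libraries was most like that of EGR1. Over the 12 libraries, Pearson's r between their log2(CPM + 1) values was 0.995, and it was also 0.995 over the 11 libraries without vehicle day 12 replicate 1, a setting chosen after the data were seen. JUNB had 0.946 over the 12 libraries and 0.953 without that one, IER2 had 0.886 and 0.929, FOSB had 0.858 and 0.856, and DUSP1 had 0.269 and 0.309. JUN had -0.143 over the 12 libraries and -0.132 without that one, EGR3 had -0.346 and -0.322, EGR2 had -0.620 and -0.625, and ATF3 had -0.830 and -0.868. The libraries fall into 4 groups, so a value over all 12 largely compares groups, and depth and scaling are shared by all genes of a library. Among 11422 genes averaging 5 CPM or more, 982 had r above 0.9, and the 6 non-members closest to EGR1 were LRP11 at 0.967, RTN4 at 0.962, TCOF1 at 0.959, GPS2 at 0.959, FUT11 at 0.956 and BOD1 at 0.955. With each group's mean removed, r within the 6 vehicle libraries was 0.984 for IER2, 0.976 for DUSP1, 0.974 for FOS and -0.02 for LRP11. Vehicle day 12 replicate 1 lay furthest from its group mean, at -0.63 for EGR1, -0.51 for IER2, -0.45 for DUSP1 and -0.48 for FOS. The vehicle values of r thus lean on that library, and r was not computed without it there. Within the 6 EPZ011989 libraries it was 0.346, 0.560, 0.985 and 0.878 for the same genes. The order of likeness to EGR1 thus depended on the libraries used.

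EGR1, JUN, JUNB and DUSP1 have a single listed transcript in the deposited tables, and among the others IER2 showed a shift in make-up. Its 2110-base transcript joins exons at 13150433-13150552 and 13152944-13154908 on chromosome 19 in GENCODE 29 (GRCh38), which holds an earlier and slightly shorter version of it. Its 2934-base transcript is a single exon at 13151975-13154908, and both hold the same coding stretch. The 2110-base form had 11.1, 13.05 and 9.50 TPM in day 12 EPZ011989 libraries, against 25.6, 42.5 and 44.3 in vehicle, with no overlap. The 2934-base form had 10.7, 10.8 and 11.2 TPM in day 12 EPZ011989 libraries, against 10.2, 14.5 and 14.5 in vehicle, with overlap. The longer form thus held 58.7 ± 4.22% of IER2 reads in EPZ011989 cells and 34.5 ± 2.81% in vehicle cells at day 12 (SD, n = 3 each). At day 6 it held 39.2 ± 11.2% in EPZ011989 cells and 30.2 ± 5.02% in vehicle cells. The share at day 12 did not overlap between groups, the split is an estimate of the authors' quantifier from reads the forms largely share, and an exact permutation test of 3 against 3 cannot go below a two-sided p of 0.1. IER2 also overlaps an antisense transcript, AC011446.2. For FOSB, 13 transcripts are listed, and retained-intron forms held 25.3 ± 10.4% of its reads in EPZ011989 cells and 28.4 ± 4.38% in vehicle cells at day 12, with overlap. At day 6 they held 0, 32.7 and 33.5% in EPZ011989 libraries, against 44.2, 36.0 and 33.7% in vehicle, which did not overlap although the nearest libraries were almost equal, and this split too is an estimate.

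**Figure D4:**
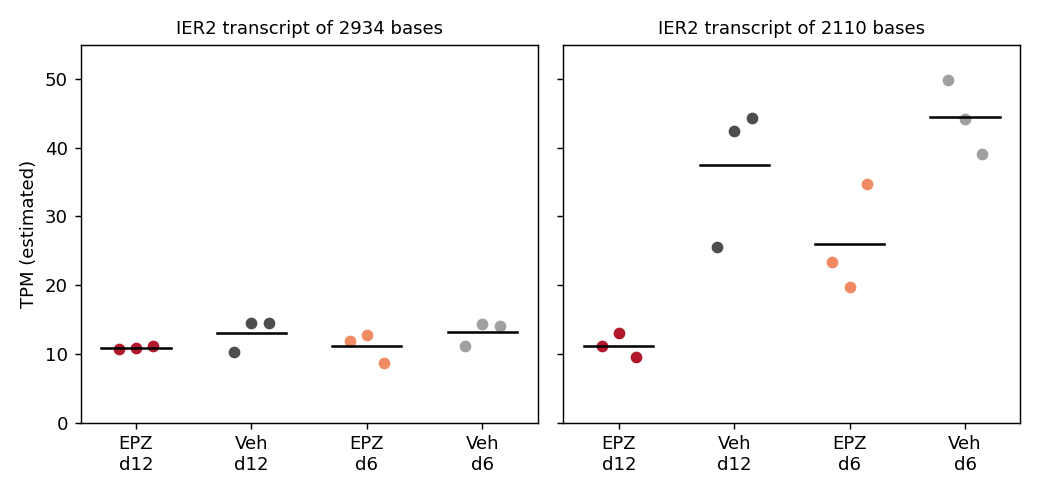
Estimated TPM of the 2 IER2 transcripts in each library (points; bars means of 3), EPZ011989 left of vehicle at day 12 and day 6. The 2934-base form stays between 8.71 and 14.5 TPM in all 12 libraries, while the 2110-base form is 9.50 to 13.05 in day 12 EPZ011989 cells and 25.6 to 44.3 in day 12 vehicle cells.

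Of 35 other immediate early genes tested, 10 rose and 3 fell at day 6 and 15 were called higher and 8 lower at day 12, with median log2 fold changes of 0.12 and 0.34. Of all genes tested, 17.1% rose and 17.0% fell at day 6 and 33.7% were higher and 33.2% lower at day 12, the shares that this and each following list count stand beside. SGK1, a survival kinase, had 2.72 ± 0.14 at day 6 and 4.18 ± 0.14 at day 12, and HBEGF, an EGF receptor ligand, had 1.46 ± 0.16 and 3.51 ± 0.15. The small GTPase gene RHOB had 0.45 ± 0.07 and 1.89 ± 0.07. ZFP36L2, whose protein promotes decay of AU-rich messages, had -0.19 ± 0.11 at day 6, which did not pass, and -1.97 ± 0.12 at day 12. Members and other immediate early genes thus did not share one direction.

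Among genes of MAP kinase output more were called higher than lower on both days, and among cascade genes and promoter regulators both directions were called. Of 23 feedback and output genes, 9 rose and 2 fell at day 6, and 12 were called higher and 3 lower at day 12, with medians of 0.51 and 1.498. EPHA2, a receptor kinase, had 3.06 ± 0.23 at day 6 and 4.89 ± 0.26 at day 12, and ETV5, an ETS factor, had 2.34 ± 0.28 and 3.49 ± 0.28. DUSP2, a nuclear MAP kinase phosphatase, had -1.03 ± 0.16 and -2.35 ± 0.18. Of 24 cascade genes, 4 rose and 5 fell at day 6, and 9 were called higher and 12 lower at day 12, where SHC1, an adaptor below receptor kinases, had 1.96 ± 0.05. Of 14 SRF, ternary complex and CREB regulators, 2 rose and 2 fell at day 6, and 2 were called higher and 5 lower at day 12. Of the ternary complex factors, ELK1 had -0.42 ± 0.10 at day 6 and -0.51 ± 0.11 at day 12. ELK3 had 1.58 ± 0.24 at day 6 and -0.58 ± 0.25, outside the count, at day 12, and ELK4 had 0.22 ± 0.07 and 0.32 ± 0.07. NAB1 and NAB2, which repress EGR proteins, had 0.20 ± 0.05 and -0.67 ± 0.27 at day 6, where only NAB1 passed, and -0.52 ± 0.05 and -1.04 ± 0.28 at day 12.

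Of 20 other AP-1 and CREB/ATF genes, 3 rose and 2 fell at day 6, and 9 were called higher and 6 lower at day 12, with medians of 0.03 and 0.20. CREB5 had 1.09 ± 0.43 at day 6, which did not pass, and 4.44 ± 0.40 at day 12. ATF4, the central factor of the integrated stress response and an activator of ATF3, had -0.26 ± 0.05 at day 6 and -0.21 ± 0.05 at day 12. Of 14 genes of that response, 1 rose and 8 fell at day 6, and 5 were called higher and 6 lower at day 12. Of 10 heat shock genes, 5 fell at day 6 and 10 were called lower at day 12. Within the stress response list DDIT4, an inhibitor of mTOR signalling, had 1.26 ± 0.13 at day 12, PPP1R15A, a phosphatase subunit that acts on eIF2, had 0.98 ± 0.15 and CHAC1, which degrades glutathione, had 0.76 ± 0.15, while ATF5 had -1.21 ± 0.06.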

How the data were processed

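Polyadenylated RNA of 12 MKL-1 libraries was sequenced. Per the labels' protocols and the submitters' processing notes, the authors used FastQC, Salmon 1.2.0, DESeq2 and the hg38 build, and deposited estimated counts and TPM per transcript for each library and 1 table of normalized values per gene (signal units, with no statement of how they were scaled). Estimated counts were summed per gene through transcript identifiers of GENCODE 29, which matched 93.52% of 179883 transcripts and left out 3.082 to 3.584% of reads. Sums were rounded to whole numbers, filtered with filterByExpr (15024 genes), scaled by TMM and tested with edgeR 4.0.16 (quasi-likelihood, R 4.3.3) over 4 group means, with Benjamini-Hochberg adjustment over all genes and a threshold of 0.05. Standard errors were taken as the absolute log2 fold change over the root of edgeR's F. Levels are the authors' deposited normalized values or TPM summed per gene, and a group pair without overlap has no shared range in the authors' table, over genes with at least 10 in at least 3 libraries. The fit was tested on simulated data. Alternatives were DESeq2 1.42.0, limma 3.58.1 on the authors' table, other scaling and filters, length offsets, a replicate block and leaving out each library. The genes and lists were chosen with earlier results of these data known. Named list genes are up to 4 with the smallest p at day 6 and up to 4 with the largest fold change at day 12, of which some are printed. Promoter sequences are from RefSeq, GRCh38.p14, with no entry used for EGR3.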

Additional observations from a re-analysis of the deposited data

Results flagged for a closer look

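ATF3 moved in opposite directions with culture time in the 2 treatments. Its log2 fold change, day 12 over day 6, was 1.01 in EPZ011989 cells and -0.80 in vehicle cells. All 3 EPZ011989 libraries at day 12 lay above all 3 at day 6, and all 3 vehicle libraries at day 12 lay below all 3 at day 6. The difference between the treatments was not tested.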

How the results depend on the processing

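At day 6 the number of members called was 6, and 4 to 7 under 10 other settings and 2 to 7 with 1 library left out. The share of all genes called was 21.1% to 41.3% under those settings and 25.3% to 37.5% with 1 library left out. EGR1 at day 6 passed without the low-count filter (-0.87) and with a replicate block (-1.05), and EGR2 passed with the day 6 libraries alone (1.515). EGR3 did not pass with transcript lengths as an offset (1.76) or with limma (1.64 and 1.47), and FOSB did not pass with the DESeq2 test (-1.20) or the length offset (-1.29). At day 12 the count was 7, and 7 to 8 under other settings (43.9% to 70.1% of all genes called) and 6 to 8 with 1 library left out (61.8% to 65.5%). JUN entered that count with library totals (0.19) and with the stricter low-count filter (0.17), where 66.7% and 70.1% of all genes were called. In vehicle, day 12 over day 6, the count was 2, against 3 without the low-count filter, where JUNB joined. It was 1 with library totals, 1 with the DESeq2 test, and 0 with the vehicle libraries alone, with the length offset and with either limma fit. It was 0 to 3 with 1 library left out, while the share of all genes called was 1.196% (without vehicle day 6 replicate 2) to 27.1% (without vehicle day 12 replicate 3). The share of all genes called also fell there, to 0.592% with the length offset and 0.971% and 0.937% with limma, beside 13.1%. That share was 9.92% without the low-count filter, 12.9% with library totals and 18.5% with the DESeq2 test. At day 6 the length offset called 21.6% of all genes, beside 34.2%. For EPZ011989 cells the count was 7, and 6 to 7 with 1 library left out, beside 51.0% to 59.4% of all genes.

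Some uncalled values changed sign with culture time, in vehicle for the first 3 genes. JUN, at -0.04, was 0.027 with the length offset, 0.024 with either limma fit, and -0.11 to 0.028 with 1 library left out. EGR3, at 0.56, was -0.14 with limma and a pseudocount of 1, and -0.042 to 1.07 with 1 library left out. EGR2, at 0.24, was -0.28 to 0.79 with 1 library left out. FOSB in EPZ011989 cells, at -0.54, was -0.94 to 0.09 with 1 library left out. The cause was not tested.

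Same-numbered libraries of different groups had correlated deviations of -0.046 to 0.086, none of 18 over 0.1, and a library was closest to its own number in 11 of 36 comparisons, so the numbers were not taken as pairs. The replicate block moved the day 6 count to 7 and left the vehicle count at 2, of which ATF3 remained and JUNB replaced FOSB. With the block 34.4% of all genes were called at day 6 and 15.7% in vehicle. EGR2 and EGR3 rest on few reads, which limits what can be seen of them. EGR2 did not enter the fit with the stricter filter or the one of the vehicle libraries alone.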
